A study of Homo sapiens with 16 samples.

Results

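THP-1 monocytes carrying a short hairpin against DNMT3B were set beside THP-1 monocytes carrying one against DNMT1, both after 48 h in DMSO, the solvent used as vehicle. The comparison used 4 of the 16 RNA sequencing libraries of the series, 2 labelled shDNMT3B and 2 labelled shDNMT1, picked by the names of the columns of the count table, and it covered all genes. THP-1 is a line from an acute monocytic leukemia. The hairpins were brought in by lentivirus and the cells selected with puromycin, so each label stands for 1 stable line with 1 hairpin. An effect of the hairpin and a difference between the lines it was measured in cannot be told apart here. The other 12 libraries held the same 2 lines after 48 h of 100 ng/ml PMA, a phorbol ester that turns THP-1 cells into macrophages, and a line with a hairpin against UHRF1 and one with a non-targeting hairpin (shNC), each in DMSO and in PMA. The description named another condition than the title for 12 of the 16 samples, and libraries are therefore named by their columns. The labels do not say whether replicates were separate cultures. The p-values thus measure a spread between libraries of the same group, estimated from all 16 libraries, which may be technical.

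DNMT3B, with its relative DNMT3A, adds methyl groups to cytosines that carried none before. DNMT1 copies existing methyl groups onto the new strand after replication and is brought there by UHRF1, which reads DNA methylated on one strand. Methylation of promoters is known to keep germline genes, imprinted alleles and repeats silent, and its loss can set off an interferon response to transcribed repeats. A direct contrast of the lines asks how cells depleted of a de novo enzyme differ from cells depleted of the maintenance enzyme. No shNC library is compared in it, but all 16 libraries entered the gene filter, the scaling and the estimate of spread.

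The 4 libraries held 21591459 and 15378974 counts (labelled shDNMT3B) and 20487145 and 15515035 counts (labelled shDNMT1), within the range of 13883556 to 23151864 over all 16. Mitochondrially encoded genes took 29.0% and 14.5% of the counts in the libraries labelled shDNMT3B, against 28.0% and 12.6% in those labelled shDNMT1, so in DMSO this share differed more between replicate numbers than between lines. Of 15 monocyte identity markers, all passed the filter on low counts, with a summed level of 5959 and 4239 CPM (a gene's counts scaled to a common library total, with TMM factors that correct for composition) in the libraries labelled shDNMT3B, against 7169 and 5502 CPM in those labelled shDNMT1. Of 31 markers of other blood lineages and stroma, 17 did not pass the filter, the T cell genes CD3D, CD3E and CD3G among them. Of the other 14, 2 were called, NCAM1 and COL1A1, both higher, where 4.73% of all genes tested were called higher and 1.61% lower. The list summed to 194 and 164 CPM in the libraries labelled shDNMT3B, against 169 and 136 CPM in those labelled shDNMT1, and its part in the results below was not tested. LPL, a lipase of macrophages, stood at 21.8 and 17.8 CPM in the libraries labelled shDNMT3B and at 7.28 and 7.02 CPM in those labelled shDNMT1, while the columns of both lines named PMA held 998 to 1760 CPM. In bulk RNA, fewer cells of a type and less RNA per cell cannot be told apart.

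The transcripts of the targeted genes did not separate the lines. DNMT1 had 73.3 and 102 CPM in the libraries labelled shDNMT3B, against 82.4 and 111 CPM in those labelled shDNMT1, and thus was not lower where its own hairpin was expressed. Its log2 fold change of shDNMT3B over shDNMT1 was -0.14 (SE 0.30, edgeR's quasi-likelihood test with Benjamini-Hochberg adjustment, adjusted p = 0.870). DNMT3B itself had 6.40 and 6.87 CPM in the libraries labelled shDNMT3B, against 7.98 and 8.73 CPM in those labelled shDNMT1 (log2 fold change -0.33, SE 0.20, adjusted p = 0.387). The DNMT3B libraries did not overlap, in the direction of the label, but the difference did not pass the test. In shNC, DNMT1 had 89.6 and 140 CPM, and in shUHRF1 123 and 159 CPM, gaps that were not tested here. The paper reports a western blot check of knockdown and lower global methylation only in DNMT1-depleted cells. Neither protein nor methylation was measured in these libraries. Because the DNMT1 transcript did not separate the lines, directions below belong to the labels of the libraries and not to measured depletion.

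DNMT3A and UHRF1 did not pass the test, and both did when the replicate number was fitted as a block. DNMT3A, the second de novo enzyme, had 21.2 and 18.3 CPM in the libraries labelled shDNMT3B, against 14.4 and 10.9 CPM in those labelled shDNMT1 (log2 fold change 0.64, SE 0.18, adjusted p = 0.0600, and 0.00323 with the block, 0.0270 by DESeq2 and 0.0451 with upper-quartile factors). UHRF1 had 66.2 and 94.9 CPM, against 101 and 123 CPM in the same order (log2 fold change -0.48, SE 0.26, adjusted p = 0.342, and 0.00398 with the block). Of 21 tested genes of the DNA methylation machinery, edgeR called 0 either way, near the 4.73% higher and 1.61% lower of all genes. At an unadjusted p under 0.05, 1 was higher and 1 lower, and DESeq2 called 1 higher, DNMT3A. The block called 1 higher and 6 lower, UHRF1, the remodeler gene HELLS and TET2 among the lower ones. Of all 16503 genes, the block called 1830 higher and 1611 lower.

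Between the lines, more genes were higher than lower in the libraries labelled shDNMT3B. A gene is called here at an adjusted p under 0.05, with no limit on the fold change. Of 16503 genes tested, 1045 were called (6.33%), 780 higher (4.73%) and 265 lower (1.61%) in the libraries labelled shDNMT3B. Log2 fold changes over all genes tested had a median of -0.004, a median size of 0.31 and a median SE of 0.28. The genes called higher had a median of 1.73, and 317 of them exceeded 2 on the log2 scale, while those called lower had a median of -0.91 and 21 fell by more than 2. At an unadjusted p under 0.05 there were 3209 genes, 1930 higher and 1279 lower, and DESeq2 called 913 higher and 430 lower. List counts below by unadjusted p, DESeq2 or the replicate block compare with the totals of that criterion, not with 4.73% and 1.61%. With the replicate block the counts were 1830 higher and 1611 lower, which held 779 of the 780 and 265 of the 265. Without shDNMT1 replicate 1, shDNMT1 replicate 2, shDNMT3B replicate 1 or shDNMT3B replicate 2 they were 336, 371, 407 and 545 higher and 80, 93, 65 and 134 lower.

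Where the control line stood differed between the directions. The shNC mean lay between the means of both lines for 651 of the 780 genes called higher, above both for 89 and below both for 40. Of the 265 genes called lower, it lay between them for 173, above both for 85 and below both for 7. Most genes called in either direction thus had shNC between the lines. These genes were picked for a gap between the lines, and a wide gap makes a place between them more likely for any other line. The gap was wider for genes called higher (median log2 fold change 1.73) than for those called lower (-0.91). The share over all genes tested was not counted, and the part of gap size in the difference between the directions was not tested.

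**Figure D1:**
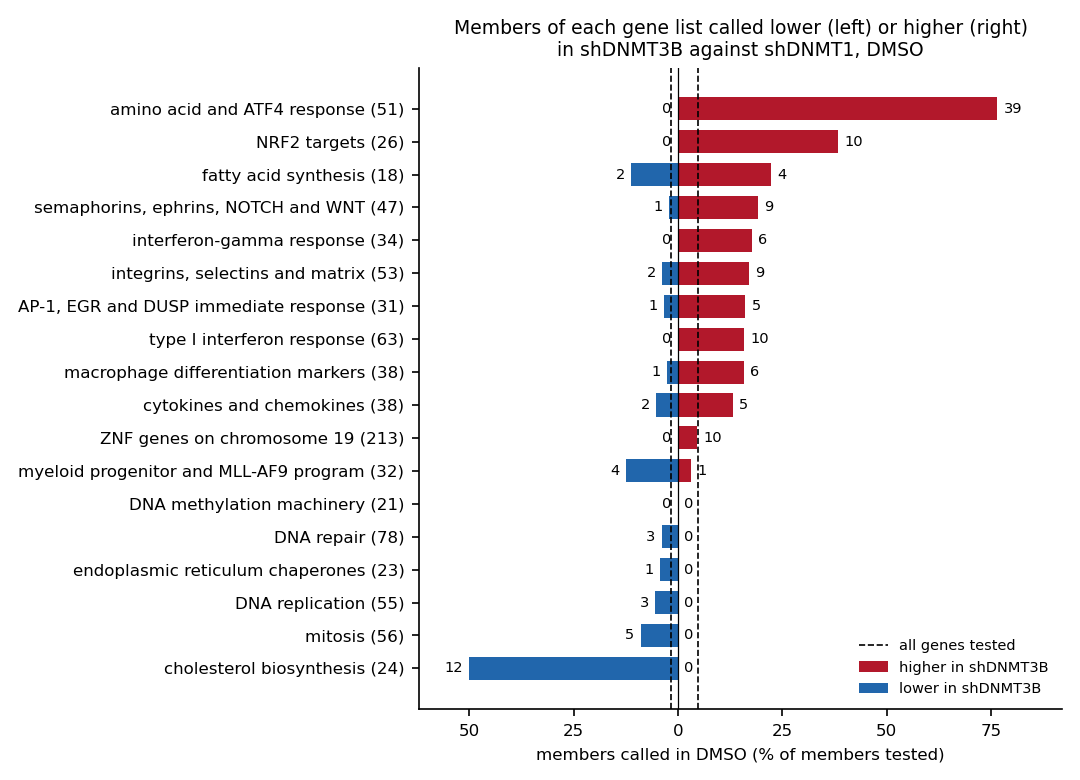
Share of the tested members of 18 gene lists called lower (left, blue) or higher (right, red) in the libraries labelled shDNMT3B against those labelled shDNMT1 in DMSO, in percent, with the number tested in parentheses and the number called at each bar. Dashed lines mark the shares over all genes tested, 1.61% lower and 4.73% higher; the amino acid and ATF4 response (39 of 51 higher) and cholesterol biosynthesis (12 of 24 lower) reach farthest.

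Among the lists, the amino acid response had the largest share of genes called higher. When amino acids run short or other stresses act, cells slow translation in general but translate ATF4, a transcription factor that turns on amino acid transporters, enzymes of serine and asparagine synthesis, tRNA synthetases and, under lasting stress, DDIT3 and CHAC1. Of 51 tested members of this list, 39 rose and 0 fell in the libraries labelled shDNMT3B, against 4.73% and 1.61% of all genes. The median log2 fold change of the list was 1.57 where that of all genes was -0.004. At an unadjusted p under 0.05, 44 members were higher and 1 lower, and DESeq2 called 41 higher and 1 lower. The shNC mean lay between the lines for all 39 genes that rose, so the libraries labelled shDNMT3B stood above shNC and those labelled shDNMT1 below it. Leaving out any 1 of the 4 libraries kept between 35 and 38 called.

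ATF4 itself, on chromosome 22, had 945 and 701 CPM in the libraries labelled shDNMT3B, against 251 and 245 CPM in those labelled shDNMT1, with 682 and 524 CPM in shNC. The log2 fold change was 1.73 (SE 0.20, adjusted p = 0.000233). STC2, a secreted glycoprotein induced under this stress, showed the widest gap, with 34.6 and 36.0 CPM against 0.163 and 0.0520 CPM (log2 fold change 8.28, SE 0.32, adjusted p = 5.69e-08). It rested on 1362 counts against 4, so the size of its fold change is less certain than the SE makes it look. In shNC it stood in the middle, at 11.7 and 10.6 CPM. CHAC1, which breaks down glutathione, had 46.6 and 36.8 CPM in the libraries labelled shDNMT3B, against 1.58 and 1.46 CPM in those labelled shDNMT1 (4.78, SE 0.23, adjusted p = 3.37e-07). The libraries of the lines did not overlap for any of these genes.

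The enzymes of serine synthesis rose together. PHGDH, which takes the first step from glycolysis, had 380 and 322 CPM in the libraries labelled shDNMT3B, against 62.0 and 65.6 CPM in those labelled shDNMT1 (log2 fold change 2.46). PSAT1, the next enzyme, had 286 and 289 CPM against 35.6 and 30.9 CPM (3.11). ASNS, which makes asparagine, had 130 and 125 CPM against 21.1 and 13.7 CPM (2.87). MTHFD2, an enzyme of the mitochondrial folate cycle that serine feeds, rose less, by 1.59 on the log2 scale. Their adjusted p-values ran up to 0.000491, that of MTHFD2.

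Transporters and tRNA synthetases followed. SLC7A11, the cystine importer, had 68.0 and 96.5 CPM in the libraries labelled shDNMT3B, against 12.003 and 15.5 CPM in those labelled shDNMT1 (log2 fold change 2.58, adjusted p = 5.36e-05). SLC7A5, the large neutral amino acid transporter, had 327 and 297 CPM against 72.6 and 66.8 CPM (2.16), and its partner chain SLC3A2 rose by 1.75. SLC6A9, a glycine transporter, had 5.50 and 6.87 CPM against 0 and 0.104 CPM, a ratio of 117 from 239 and 2 counts (95% counting interval 31.9 to 969, counting error only). Among the synthetase genes, WARS1 (1.78), CARS1 (1.79), GARS1 (1.57) and AARS1 (1.39) rose. NARS1 was at 142 and 172 CPM against 137 and 137 CPM (0.20, adjusted p = 0.544).

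Regulators and stress effectors of the pathway rose as well. SESN2, an inhibitor of mTORC1, had 46.8 and 42.3 CPM in the libraries labelled shDNMT3B, against 6.41 and 6.19 CPM in those labelled shDNMT1 (log2 fold change 2.82, adjusted p = 7.56e-07). DDIT4, another mTORC1 inhibitor, had 52.9 and 58.2 CPM against 5.81 and 4.99 CPM (3.36). TRIB3, a pseudokinase that restrains ATF4, had 169 and 153 CPM against 42.6 and 39.5 CPM (1.97). The transcription factor genes ATF3 (2.72), ATF5 (2.77), NUPR1 (3.79) and DDIT3 (1.60), the last a factor of stress-induced death, rose with them, as did JDP2, at 30.2 and 24.3 CPM against 4.40 and 5.93 CPM. GDF15, a stress cytokine, had 3.28 and 2.75 CPM against 0 and 0.156 CPM, a ratio of 37.7 from 116 and 3 counts (95% counting interval 12.6 to 186). ALDH18A1, which makes proline precursors, went the other way without passing, at 38.7 and 42.4 CPM against 56.2 and 53.7 CPM (-0.44, adjusted p = 0.0877, and 0.0138 with the replicate block). Chaperone genes of the endoplasmic reticulum, which belong to another stress response, were counted too. What set off the rise of the ATF4 list was not tested. Of 23 genes tested in this chaperone list, edgeR called 0 higher and 1 lower, with a median of -0.52. These counts are near the 4.73% and 1.61% of all genes. At an unadjusted p under 0.05, 0 were higher and 7 lower, and DESeq2 called 0 higher and 2 lower. That 1 call was lost without shDNMT3B replicate 2, shDNMT1 replicate 1 or shDNMT1 replicate 2. HSPA5, the main chaperone of that compartment, had 689 and 482 CPM in the libraries labelled shDNMT3B, against 1131 and 770 CPM in those labelled shDNMT1 (-0.70, adjusted p = 0.310, and 0.000353 with the replicate block). The block called 10 of the 23 lower and 1 higher, where it called 1611 of all 16503 genes lower and 1830 higher.

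**Figure D2:**
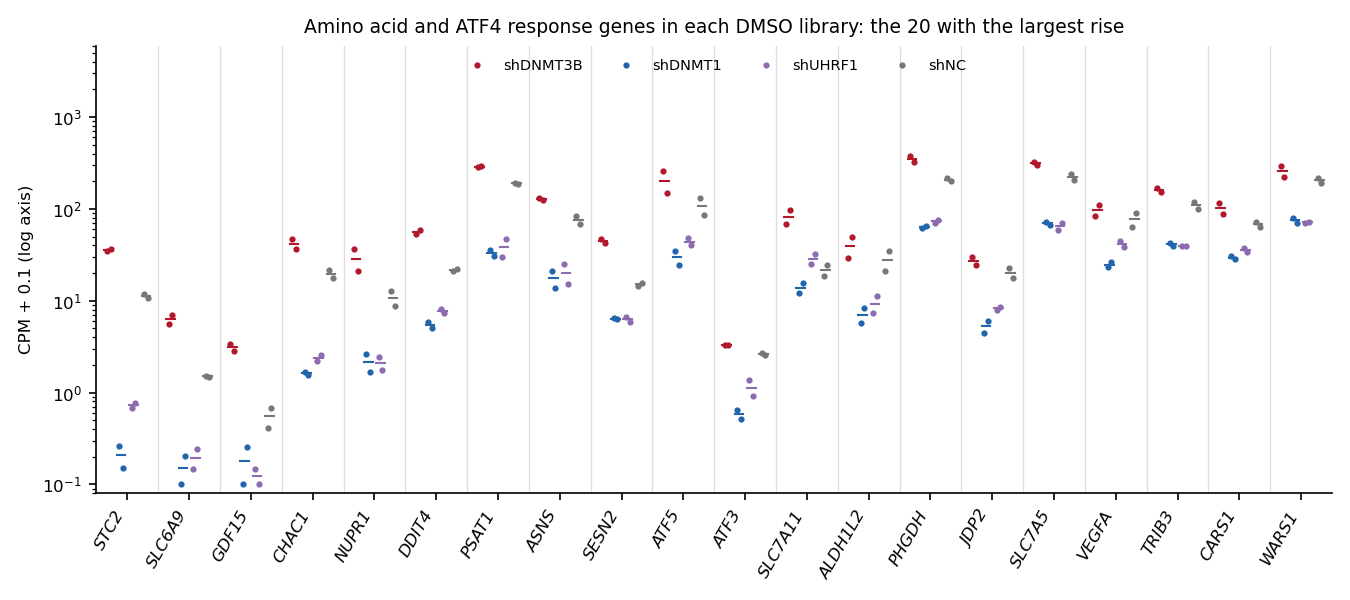
Level of the 20 amino acid and ATF4 response genes with the largest rise in each DMSO library, as CPM plus 0.1 on a log axis, for shDNMT3B (red), shDNMT1 (blue), shUHRF1 (purple) and shNC (grey); bars are the mean of 2 libraries. In each gene the red points lie highest and the grey points between them and the blue ones; STC2 runs from 0.0520 CPM in shDNMT1 replicate 2 to 36.0 CPM in shDNMT3B replicate 2.

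Promoter sequences were searched because many of these genes move together and the ATF4 site is known. Windows from 250 bases before to 50 bases after RefSeq start sites (GRCh38.p14) were found for 11736 of the 16503 genes. The C/EBP-ATF response element, searched as TGATGNAA on both strands, was present in 16 of 40 list members with a window (40.0%) and in 12 of the 30 that rose, against 334 of all 11736 genes (2.85%). Many list members are known ATF4 targets, so the share describes the list and is not independent of its choice. The stretches of 30 bases below come from 6 genes that rose and hold such a match on either strand, marked by capitals. Those of CHAC1, ASNS, GARS1 and AARS1 overlap an annotated transcript of the same gene, and those of ATF3 and JDP2 do not.
CHAC1 (chr15:40953251-40953280, plus strand): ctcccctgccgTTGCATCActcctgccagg
ASNS (chr7:97872458-97872487, minus strand): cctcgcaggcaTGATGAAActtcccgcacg
ATF3 (chr1:212565205-212565234, plus strand): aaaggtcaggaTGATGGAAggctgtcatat
JDP2 (chr14:75427992-75428021, plus strand): tatatagccggggcTGATGCAAcccgtccc
GARS1 (chr7:30594834-30594863, plus strand): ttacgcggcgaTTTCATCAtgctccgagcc
AARS1 (chr16:70289675-70289704, minus strand): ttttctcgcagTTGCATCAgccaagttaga
The variable base of the element differed between these genes, and a match describes letters in this window and is no record of binding.

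Sterol synthesis went the opposite way. SREBP factors, held back by INSIG proteins when sterols are plentiful, drive the enzymes of cholesterol synthesis and sterol uptake. Of 24 tested cholesterol biosynthesis genes, 0 rose and 12 fell in the libraries labelled shDNMT3B, against 4.73% and 1.61% of all genes, with a list median of -0.79. At an unadjusted p under 0.05, 1 was higher and 19 lower, and DESeq2 called 0 higher and 15 lower. The block raised the count of falls to 19, with 1 rise. A fit of only the 4 libraries gave 6 falls, and leaving out shDNMT3B replicate 1 left 4 and shDNMT1 replicate 1 left 8. The shNC mean lay above both lines for all 12, so these genes were below shNC in both lines and lowest in the libraries labelled shDNMT3B.

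INSIG1, itself a target of SREBP, had 15.5 and 14.4 CPM in the libraries labelled shDNMT3B, against 57.4 and 52.9 CPM in those labelled shDNMT1, with 154 and 137 CPM in shNC (log2 fold change -1.88, SE 0.22, adjusted p = 0.000252). FDFT1, which makes squalene, had 55.3 and 63.0 CPM against 122 and 132 CPM, with 198 and 232 CPM in shNC (-1.10, SE 0.14, adjusted p = 0.000550). IDI1, an isoprenoid isomerase, had 20.5 and 23.005 CPM against 43.9 and 44.1 CPM (-1.02, SE 0.14, adjusted p = 0.00104). The libraries of the lines did not overlap for these 3 genes. SQLE, the next oxygenase, fell by 1.38 and was not called without shDNMT3B replicate 1 (-1.22). The gene of the master factor SREBF2 had 79.7 and 82.3 CPM against 100 and 109 CPM and did not pass (-0.37, adjusted p = 0.234, and 0.0414 with the block). HMGCS1 did not pass either, at 22.1 and 25.4 CPM against 31.6 and 35.1 CPM (-0.49, adjusted p = 0.145, and 0.00867 with the block).

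Fatty acid and sterol export genes did not share one direction. Of 18 fatty acid synthesis genes, 4 rose and 2 fell, and leaving out 1 library left 1 or 2 rises and 0 or 1 falls, and a fit of only the 4 libraries 1 of each (4.73% and 1.61% of all genes were called). FADS2, a desaturase, had 2.96 and 3.77 CPM in the libraries labelled shDNMT3B, against 8.74 and 11.8 CPM in those labelled shDNMT1 (log2 fold change -1.61, adjusted p = 0.0179), and lost its call without shDNMT3B replicate 1 (-1.46), shDNMT3B replicate 2 (-1.79) or shDNMT1 replicate 2 (-1.38). SREBF1, the SREBP gene more tied to fatty acids and induced by LXR, had 43.3 and 33.8 CPM against 18.955 and 18.921 CPM (1.03, adjusted p = 0.00910). It was not called without shDNMT3B replicate 1 (0.83), shDNMT1 replicate 1 (1.03) or shDNMT1 replicate 2 (1.02). CYP27A1, a sterol hydroxylase whose products activate LXR, had 16.9 and 15.01 CPM against 5.27 and 4.37 CPM (1.73, adjusted p = 0.000369). In the promoters, the sterol regulatory element TCACNCCAC was found in 1 of 18 cholesterol genes with a window, SREBF2, and in 1.39% of all genes. Of the 7 cholesterol genes that fell and had a window, 0 held the sterol element. CCAAT boxes, bound by the SREBP partner NF-Y, were in 16 of the 18 (88.9%) against 42.8% of all genes. SREBP factors drive many genes of this list, so that share is not independent of its choice.

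Some detoxification genes of the NRF2 program rose. NRF2 is released from KEAP1 by electrophiles and oxidants and turns on enzymes that handle them. Of 26 tested targets, 10 rose and 0 fell (against 4.73% and 1.61% of all genes), with a median of 0.62 (15 and 0 at an unadjusted p under 0.05, 12 and 0 by DESeq2, 18 and 0 with the block). The AKR1C reductases of steroids and carbonyls led. AKR1C2 had 220 and 202 CPM in the libraries labelled shDNMT3B, against 2.50 and 2.03 CPM in those labelled shDNMT1, with 18.2 and 12.9 CPM in shNC (log2 fold change 6.54, SE 0.41, adjusted p = 2.55e-06). AKR1C3 had 20.1 and 18.1 CPM against 0.543 and 0.780 CPM (4.84), and AKR1C1 had 23.5 and 16.7 CPM against 2.55 and 1.20 CPM (3.42). These copies are close in sequence, so counts may be shared between them and their separate levels are uncertain. HMOX1, which degrades heme, had 14.7 and 12.8 CPM against 2.39 and 2.75 CPM (2.42, adjusted p = 0.00127). FTH1, the ferritin heavy chain, rose by 1.89 and OSGIN1, a growth inhibitor, by 1.89. NQO1, often used as the marker of this program, had 105 and 76.7 CPM against 57.0 and 35.8 CPM (0.97, adjusted p = 0.158, and 1.26e-06 with the block). GCLM, of glutathione synthesis, was at 22.5 and 32.4 CPM against 15.2 and 21.5 CPM (0.58, adjusted p = 0.369, and 0.00901 with the block). The antioxidant response element TGACNNNGC was in 5 of 19 of these promoters (26.3%) against 19.3% of all genes, a share near the background.

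A minority of interferon-induced genes rose in DMSO. Of 63 type I interferon response genes, 10 rose and 0 fell (against 4.73% and 1.61% of all genes), with a median of 0.28 (16 and 2 at an unadjusted p under 0.05, 10 and 1 by DESeq2, 16 and 1 with the block). The shNC mean exceeded both lines for all 10 that rose. LGALS3BP, a secreted glycoprotein, had 15.2 and 12.7 CPM in the libraries labelled shDNMT3B, against 2.93 and 3.07 CPM in those labelled shDNMT1 and 53.2 and 57.1 CPM in shNC (log2 fold change 2.21, SE 0.25, adjusted p = 0.000186). IRF7, the factor that amplifies the response, had 7.03 and 8.25 CPM against 3.64 and 4.05 CPM, with 47.8 and 46.4 CPM in shNC (0.99, adjusted p = 0.00283). UBE2L6, a conjugating enzyme of ISG15, had 26.4 and 27.6 CPM against 13.3 and 12.7 CPM (1.06, adjusted p = 0.00257). ISG20, an RNA exonuclease, rested on few counts, 31 against 8 (1.88, adjusted p = 0.00740), and was not called without shDNMT3B replicate 2 (1.77), shDNMT1 replicate 1 (1.92) or shDNMT1 replicate 2 (1.85). The count of 10 depended on the fit, since a fit of only the 4 libraries gave 2 and DEGES normalization with an exact test 6. It was 3 without shDNMT1 replicate 1, 5 without shDNMT3B replicate 1 and 6 without the replicate 2 of either line.

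Members of the interferon lists that did not pass ran both ways. MX1, an antiviral GTPase, had 4.39 and 5.60 CPM in the libraries labelled shDNMT3B, against 1.90 and 3.17 CPM in those labelled shDNMT1 (log2 fold change 0.97, adjusted p = 0.0562, and 0.00334 with the block), and was called without shDNMT1 replicate 2 (1.39). TRIM22 had 1.37 and 2.44 CPM against 3.37 and 4.68 CPM (-1.07, adjusted p = 0.0709, and 0.000516 with the block), and was called lower without shDNMT3B replicate 2 (-1.55). The interferon-gamma list had 6 of 34 genes higher and 0 lower (10 and 2 at an unadjusted p under 0.05, 7 and 0 by DESeq2), with a median of 0.03. These shares stand against 4.73% and 1.61% of all genes. Without shDNMT1 replicate 2 it had 3 higher, and in a fit of only the 4 libraries 1. APOL6 rose by 0.82 and SERPING1, a complement inhibitor, by 3.47 from 48 against 4 counts. The interferon-stimulated response element, searched on both strands, was in 34 of 49 type I promoters (69.4%) against 4.05% of all genes, and in 3 of the 7 that rose and had a window. Of those, LGALS3BP and ISG20 are shown with the element in capitals.
LGALS3BP (chr17:78979962-78979991, minus strand): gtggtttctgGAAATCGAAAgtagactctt
ISG20 (chr15:88638937-88638966, plus strand): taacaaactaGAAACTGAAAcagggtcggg
The element was thus common to the list, while most list members carrying it did not pass the test. The list is made of interferon-induced genes, so the share describes the list and is not independent of its choice.

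**Figure D3:**
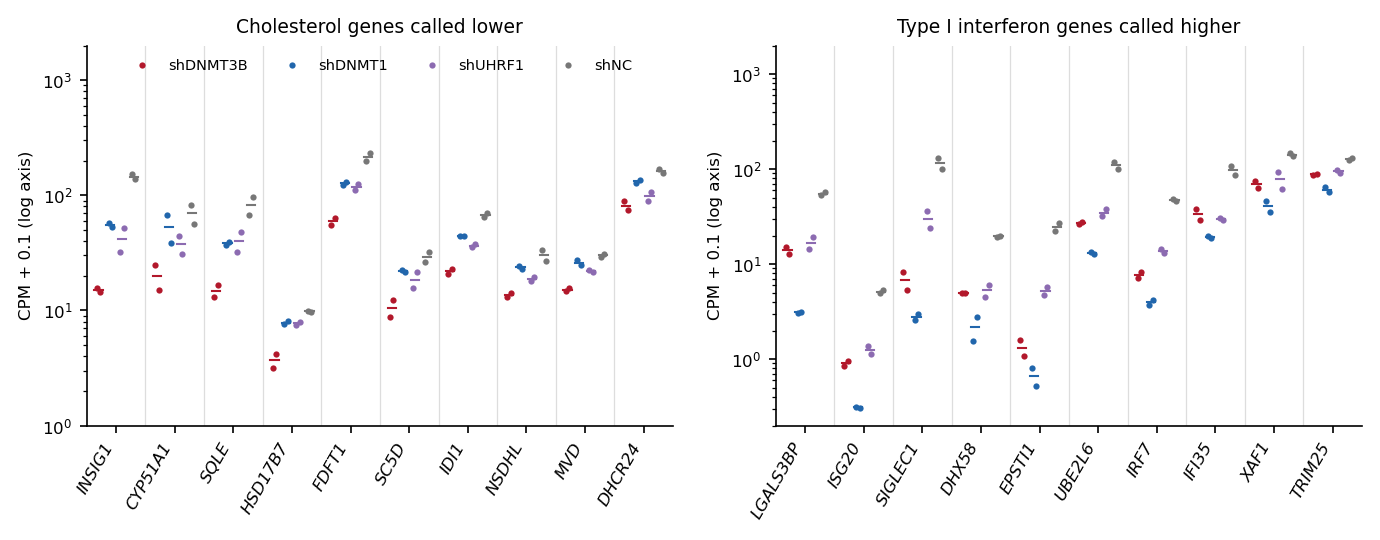
Level in each DMSO library of 10 of the 12 cholesterol genes called lower (left) and the 10 type I interferon genes called higher (right), as CPM plus 0.1 on log axes, for shDNMT3B (red), shDNMT1 (blue), shUHRF1 (purple) and shNC (grey); bars are the mean of 2 libraries. Mean levels of red lie under blue on the left and over it on the right, and the grey means lie above both in every gene shown, as for INSIG1 (154 and 137 CPM in shNC) and LGALS3BP (53.2 and 57.1 CPM).

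Some macrophage genes rose. Of 38 differentiation markers, 6 rose and 1 fell (against 4.73% and 1.61% of all genes), with a median of 0.14, and leaving out any 1 library left 4 or 5 rises and 0 falls. With the block 11 rose and 3 fell. VSIG4, a complement receptor of resident macrophages, had 8.14 and 8.96 CPM in the libraries labelled shDNMT3B, against 0.380 and 0.260 CPM in those labelled shDNMT1 and 0.473 and 0.213 CPM in shNC (log2 fold change 4.71, SE 0.32, adjusted p = 4.17e-06). FABP4, a fatty acid carrier and PPARG target, had 3.12 and 3.003 CPM against 0.163 and 0.104 CPM, 118 against 5 counts (4.46, adjusted p = 0.000350). PPARG itself had 36.7 and 30.1 CPM against 17.7 and 16.998 CPM (0.94, adjusted p = 0.00363), and LPL rose by 1.47. VSIG4 and FABP4 were at 0 to 0.476 CPM in the shNC and shUHRF1 libraries, near the level in those labelled shDNMT1. CD14, the co-receptor for lipopolysaccharide, had 3.54 and 2.34 CPM against 1.19 and 0.780 CPM and did not pass (1.57, adjusted p = 0.0623, and 0.000595 with the block).

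Of 38 cytokine and chemokine genes, 5 rose and 2 fell in DMSO (against 4.73% and 1.61% of all genes), and a fit of only the 4 libraries called 0 either way. Rises numbered 2 without shDNMT3B replicate 1, shDNMT1 replicate 1 or shDNMT1 replicate 2 and 4 without shDNMT3B replicate 2, with 0 or 1 falls. TNF, a main inflammatory cytokine, had 1.16 and 1.37 CPM in the libraries labelled shDNMT3B, against 0 and 0.104 CPM in those labelled shDNMT1, a ratio of 23.9 from 49 and 2 counts (95% counting interval 6.28 to 203). The control line held 0.631 and 1.22 CPM, nearer to shDNMT3B than to shDNMT1. IL18, which acts with the inflammasome, had 19.6 and 19.7 CPM against 8.69 and 10.6 CPM (log2 fold change 1.03, adjusted p = 0.00166). CCL20, a chemokine for lymphocytes and dendritic cells, had 2.17 and 1.02 CPM against 0.272 and 0.260 CPM (2.55, adjusted p = 0.0107), and was not called without shDNMT3B replicate 1 (1.90), shDNMT1 replicate 1 (2.58) or shDNMT1 replicate 2 (2.52). TNFSF14, a ligand of the lymphotoxin receptor, had 6.45 and 8.25 CPM against 13.3 and 14.1 CPM (-0.90, adjusted p = 0.00464), with no call when shDNMT3B replicate 1 was left out (-0.74). IL1B had 1.43 and 1.48 CPM against 0.597 and 0.624 CPM and did not pass (1.24, adjusted p = 0.0578, and 0.0233 with the block). All these genes were at a few CPM in DMSO, apart from IL18 and TNFSF14.

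A few leukemia and progenitor genes fell. KIT, the receptor for stem cell factor, had 0.317 and 0.662 CPM in the libraries labelled shDNMT3B, against 7.66 and 7.54 CPM in those labelled shDNMT1 and 2.58 and 2.55 CPM in shNC (log2 fold change -3.93, SE 0.54, adjusted p = 0.000798). MS4A3, a membrane protein of early myeloid cells, had 266 and 183 CPM against 564 and 415 CPM (-1.12, adjusted p = 0.0285), a call lost without shDNMT3B replicate 2 (-0.88) or shDNMT1 replicate 1 (-0.89). LYZ, the lysozyme of monocytes and the 1 identity marker of 15 that was called, had 81.6 and 67.9 CPM against 168 and 147 CPM (-1.08, adjusted p = 0.0201). It was not called without shDNMT3B replicate 1 (-1.23), shDNMT3B replicate 2 (-0.95), shDNMT1 replicate 1 (-0.98) or shDNMT1 replicate 2 (-1.17). The progenitor list as a whole, which holds the MLL-AF9 targets of this leukemia, had 1 of 32 higher and 4 lower, with a median of 0.001. Without shDNMT3B replicate 2 or shDNMT1 replicate 1 it had 1 lower, and the rise was lost without any 1 library. A fit of only the 4 libraries called 0 higher and 1 lower, where all genes have 4.73% and 1.61%. Among markers of other lineages, NCAM1, an adhesion molecule also seen on leukemic cells, had 62.3 and 66.2 CPM against 22.5 and 17.7 CPM and 23.5 and 26.5 CPM in shNC (1.67, SE 0.15, adjusted p = 4.76e-05).

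Few division genes passed the test. Of 56 mitosis genes, 0 rose and 5 fell (against 4.73% and 1.61% of all genes), with a median of -0.29 (0 and 11 at an unadjusted p under 0.05, 0 and 7 by DESeq2). NUSAP1, a spindle protein, had 81.5 and 88.8 CPM in the libraries labelled shDNMT3B, against 139 and 153 CPM in those labelled shDNMT1 (log2 fold change -0.78, adjusted p = 0.00850), with no call without shDNMT3B replicate 1 (-0.73) or shDNMT1 replicate 2 (-0.70). Of 55 DNA replication genes, 0 rose and 3 fell (0 and 18 at an unadjusted p under 0.05, 0 and 8 by DESeq2), with a median of -0.31. Of 78 repair genes, 0 rose and 3 fell (2 and 15 at an unadjusted p under 0.05, 0 and 3 by DESeq2). With the replicate block the falls were 15 of 56, 20 of 55 and 15 of 78, with 0, 1 and 2 rises. Of all 16503 genes, the block called 1611 lower and 1830 higher, and 1279 were lower and 1930 higher at an unadjusted p under 0.05. Replication falls were 1 without shDNMT3B replicate 2 and 0 without any other of the 4 libraries, and repair falls 0 without any 1 of them. A fit of only the 4 libraries called 0 in all 3 lists. Without shDNMT3B replicate 1 or shDNMT1 replicate 2, no mitosis gene was called at all, and with shDNMT3B replicate 2 or shDNMT1 replicate 1 left out 3 and 2 were.

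Genes often named as guarded by promoter methylation included few calls. Of 49 germline and cancer-testis genes only 9 passed the filter on low counts, and 1 of these rose. It was MAGEB2, at 99.4 and 65.7 CPM in the libraries labelled shDNMT3B, against 32.1 and 26.5 CPM in those labelled shDNMT1 (log2 fold change 1.49, adjusted p = 0.0129). Its call was lost without shDNMT3B replicate 1 (1.16), shDNMT1 replicate 1 (1.64) or shDNMT1 replicate 2 (1.36). Of 26 imprinted genes 2 rose and 1 fell, against 4.73% and 1.61% of all genes. GRB10, an adaptor that restrains insulin signaling, had 55.3 and 48.8 CPM against 18.4 and 16.9 CPM, with 33.0 and 35.8 CPM in shNC (1.56, SE 0.18, adjusted p = 0.000234). TP73, a relative of p53, had 5.34 and 6.01 CPM against 16.1 and 14.1 CPM (-1.41, SE 0.24, adjusted p = 0.00310).

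Of all 16503 genes, 1930 were higher and 1279 lower at an unadjusted p under 0.05, and the replicate block called 1830 and 1611. Of 213 zinc finger genes on chromosome 19, many of which repress transposons, 10 rose and 0 fell (22 and 6 at an unadjusted p under 0.05, 12 and 0 by DESeq2). This share is near the 4.73% of all genes, and the count was 6 without shDNMT3B replicate 1, 4 without shDNMT1 replicate 2 and 23 higher and 3 lower with the block. ZNF544 had 34.8 and 28.9 CPM in the libraries labelled shDNMT3B, against 4.24 and 5.09 CPM in those labelled shDNMT1 and 7.58 and 6.86 CPM in shNC (log2 fold change 2.77, SE 0.25, adjusted p = 4.05e-05). ZNF439 had 12.7 and 12.2 CPM against 2.55 and 1.51 CPM (2.61), and ZNF43 had 8.30 and 9.47 CPM against 2.17 and 2.34 CPM (1.97). The share of expected CpG in the promoter window, a measure of CpG islands, had a median of 0.748 in 562 genes called higher, 0.770 in 201 called lower and 0.809 in all 11736. DNA methylation was not measured in these libraries.

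Some developmental signaling and matrix genes rose. Of 47 semaphorin, ephrin, NOTCH and WNT genes 9 rose and 1 fell, and of 53 integrin, selectin and matrix genes 9 rose and 2 fell, against 4.73% and 1.61% of all genes. A fit of only the 4 libraries left 3 rises in the first list and 1 in the second, with 0 falls. JAG1 and DLL1, both ligands of NOTCH, had 3.12 and 4.43 CPM and 10.7 and 9.47 CPM in the libraries labelled shDNMT3B. Those labelled shDNMT1 held 0.489 and 1.04 CPM of JAG1 and 2.39 and 3.33 CPM of DLL1 (log2 fold change 2.29 for JAG1 and 1.81 for DLL1, adjusted p = 0.00163 and 0.00136). EPHB1, an ephrin receptor, had 3.49 and 2.34 CPM against 0.326 and 0.520 CPM (2.76, adjusted p = 0.000724). WNT5A had 0.952 and 0.967 CPM, 37 counts, against none, and was at least 12.04-fold higher, taking 3 counts over both libraries as the floor. COL4A2, a basement membrane collagen, had 3.22 and 5.34 CPM against 0.326 and 0.572 CPM (3.23, adjusted p = 0.000675). ITGA11, a collagen receptor chain, had 2.91 and 4.28 CPM against 0.163 and 0.676 CPM (3.07, adjusted p = 0.00153). SPRED1, an inhibitor of RAS signaling, had 2.48 and 3.21 CPM against 0.163 and 0.208 CPM, and DUSP8, a phosphatase of stress kinases, 3.28 and 2.65 CPM against 0.272 and 0.728 CPM (3.89 and 2.54). All are scarce transcripts, and the list of 47 fell to 4 rises without shDNMT1 replicate 1 or shDNMT3B replicate 1, that of 53 to 5, 3, 6 and 4 without shDNMT1 replicate 1, shDNMT1 replicate 2, shDNMT3B replicate 1 and shDNMT3B replicate 2. Their falls were at most 1 in each of these fits.

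Many of the largest rises were genes with next to no counts in the libraries labelled shDNMT1. Of the 780 genes called higher, 108 had at most 3 counts there and 45 had none, and of the 265 called lower 3 had none in the libraries labelled shDNMT3B. The filter keeps a gene with enough counts in the libraries of a single group. Genes near 0 in all other groups, HOXB9 among them, passed it only through the libraries where they were high, which fixes their direction. How many of the genes called did so was not counted. PTPN13, a tyrosine phosphatase, had 1.85 and 2.80 CPM in the libraries labelled shDNMT3B and was at least 29.3-fold higher. HOXB9, a homeobox gene, had 2.11 and 1.78 CPM and was at least 24.4-fold higher, and in shNC 1 library held a trace of 0.0526 CPM and the other none. RALYL, an RNA-binding protein gene, was at least 23.4-fold higher at 2.01 and 1.73 CPM, and shNC with 1.89 and 2.07 CPM was at the same level, so here shDNMT1 stood apart. ZNF334 had 3.86 and 4.07 CPM against 0 and 0.0520 CPM, a ratio of 149 from 153 and 1 counts (95% counting interval 26.4 to 5938). CCDC103 was uneven between replicates, with 0.370 and 3.77 CPM against none, and was at least 26.4-fold higher (adjusted p = 0.0212). It was not called without shDNMT3B replicate 2 (adjusted p = 0.136), shDNMT1 replicate 1 (adjusted p = 0.129) or shDNMT1 replicate 2 (adjusted p = 0.124). RPS6KA2, a ribosomal S6 kinase, reached a higher level, 32.5 and 31.3 CPM against 3.31 and 2.03 CPM and 13.4 and 16.1 CPM in shNC (3.58, SE 0.24, adjusted p = 3.78e-06).

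Among genes with a symbol, at least 1 CPM in the higher group and no overlap, KIT had the largest fall, followed by IGSF10. IGSF10, an immunoglobulin domain protein gene, had 0.581 and 0.509 CPM in the libraries labelled shDNMT3B, against 7.17 and 7.12 CPM in those labelled shDNMT1 and 2.89 and 3.19 CPM in shNC (log2 fold change -3.70, SE 0.48, adjusted p = 0.000694). CSPG4, a surface proteoglycan found on leukemias with MLL rearrangement, had 0.846 and 1.22 CPM against 5.65 and 4.99 CPM (-2.35, SE 0.21, adjusted p = 4.76e-05). NIM1K, a kinase of the AMPK family, had 6.40 and 5.95 CPM against 28.2 and 24.9 CPM, with 34.4 and 25.9 CPM in shNC (-2.10, adjusted p = 0.000482). TGM5, a transglutaminase, and XYLT1, which starts the sugar chains of proteoglycans, fell by 2.00 each. For KIT and IGSF10 shNC stood between the lines, and for NIM1K it lay with shDNMT1.

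The same lines after PMA gave a second contrast. It compares none of the libraries of the first, but both come from 1 fit of all 16. There, 1591 genes were called (9.64%), 876 higher (5.31%) and 715 lower (4.33%) in the libraries labelled shDNMT3B. Of the 780 genes called higher in DMSO, 334 were called higher in PMA too (42.8% of the DMSO calls and 38.1% of the PMA calls), 17 were called lower, and 84.4% had a positive log2 fold change against 50.1% of all genes. Of the 265 called lower, 96 were called lower in PMA (36.2% and 13.4%), 2 were called higher and 89.8% had a negative sign. The median log2 fold change of the DMSO calls was 0.82 in PMA for those higher and -0.52 for those lower. A test of the difference between the contrasts, PMA minus DMSO, called 198 genes (1.20%), 35 higher (0.212%) and 163 lower (0.988%). It included 110 of the 780 and 11 of the 265. In PMA, mitochondrially encoded genes took 19.5% and 9.35% of the counts in the libraries labelled shDNMT3B, against 7.71% and 4.86% in those labelled shDNMT1, and their part in the PMA values was not tested.

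**Figure D4:**
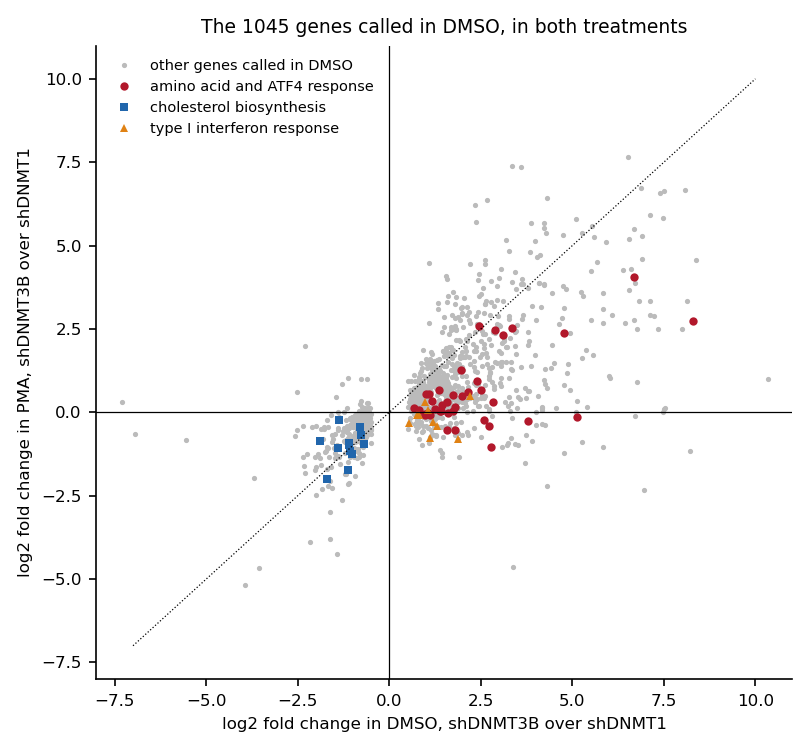
Log2 fold change of shDNMT3B over shDNMT1 in PMA (vertical) against that in DMSO (horizontal) for the 1045 genes called in DMSO, with amino acid and ATF4 response genes (red circles), cholesterol genes (blue squares) and type I interferon genes (orange triangles); the dotted line marks equal values. Cholesterol genes keep negative values in both (list median -0.78 in PMA and -0.79 in DMSO), while most amino acid response genes lie near 0 in PMA (list median 0.17 in PMA and 1.57 in DMSO).

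The gene groups differed in what PMA left of them. In the amino acid list 11 genes were called higher in both treatments, where 334 of all 16503 genes were, and the list median was 0.17 in PMA. The test of the difference called 20 of the 51, all with a lower log2 fold change in PMA, against 0.988% of all genes. The list was chosen with earlier results known, and the part of that choice in these counts was not tested. SESN2 had 17.3 and 16.6 CPM in the PMA libraries labelled shDNMT3B, against 14.5 and 12.9 CPM in those labelled shDNMT1, so that its gap was 0.31 on the log2 scale. PHGDH kept its gap, at 55.3 and 51.2 CPM against 11.9 and 5.54 CPM (log2 fold change 2.60, adjusted p = 0.000114). Cholesterol genes also kept theirs, with 12 of 24 called lower (against 4.33% of all genes) and a median of -0.78. Of the 12, 9 were called lower in both treatments, where 96 of all 16503 genes were. The test of the difference called 0 of the 24, near the 1.20% of all genes. The gap of AKR1C2 was 5.21 in PMA, that of FABP4 3.57 and that of ZNF544 3.30, all called.

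More type I interferon genes were lower than higher in PMA. There, 1 of the 63 type I genes was higher and 18 were lower (against 5.31% and 4.33% of all genes), with a median of -0.47. The test of the difference called 5 of the 63, all downward, against 0.988% of all genes. RSAD2, an antiviral enzyme, had 385 and 346 CPM in the PMA libraries labelled shDNMT3B, against 1208 and 1112 CPM in those labelled shDNMT1 (log2 fold change -1.67, adjusted p = 0.000176), where in DMSO it had 4.18 and 3.21 CPM against 2.50 and 2.75 CPM (0.49, adjusted p = 0.210). Of the genes called higher in DMSO, 2 were called lower in PMA, ISG20 (-0.81) among them. Cytokine genes spread the other way, with 19 of 38 higher and 6 lower in PMA (against 5.31% and 4.33% of all genes) and a median of 1.22. CCL20 reached 360 and 275 CPM against 26.4 and 21.6 CPM (3.72, adjusted p = 3.91e-05), and IL1B 1000 and 941 CPM against 296 and 247 CPM (1.84, adjusted p = 0.000666). MARCO, a scavenger receptor, had 2.64 and 2.24 CPM against 3.26 and 1.92 CPM in DMSO, where the libraries overlapped, but 11.8 and 10.1 CPM against 1.77 and 0.616 CPM in PMA (3.15, adjusted p = 0.000725).

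Among chromosomes, chromosome 17 had the highest median. Of its 989 genes tested, 94 were called higher (9.50%) and 5 lower, and its median log2 fold change was 0.28 in DMSO and 0.28 in the separate PMA libraries. The other 22 chromosomes had medians from -0.14 to 0.14 in DMSO and shares called higher from 3.02% to 7.36%. In windows of 20 Mb, the first of chromosome 17 had a median of 0.41 in DMSO and 0.46 in PMA, with 32 of 263 genes called higher (12.2%) and 0 lower, and the remaining windows of this chromosome ran from 0.17 to 0.29. The window farthest from 0 was on chromosome 5, from 100 to 120 Mb, with a median of -0.47 in DMSO and -0.23 in PMA and 7 of 53 genes called lower (13.2%). The highest window off chromosome 17 was the first of chromosome 6, with 0.36. Relative to the mean of the 8 DMSO libraries, genes of chromosome 17 deviated by a median of 0.18 and 0.16 in the libraries labelled shDNMT3B, -0.08 and -0.08 in those labelled shDNMT1, and -0.07 and -0.08 in shNC. On chromosome 13 the libraries labelled shDNMT3B lay lowest, at -0.19 and -0.07. HOXB9, LGALS3BP, SREBF1 and CCDC103 lie on chromosome 17, and the part that their position has in their difference was not tested. On the other 22 chromosomes, 685 genes were called higher.

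**Figure D5:**
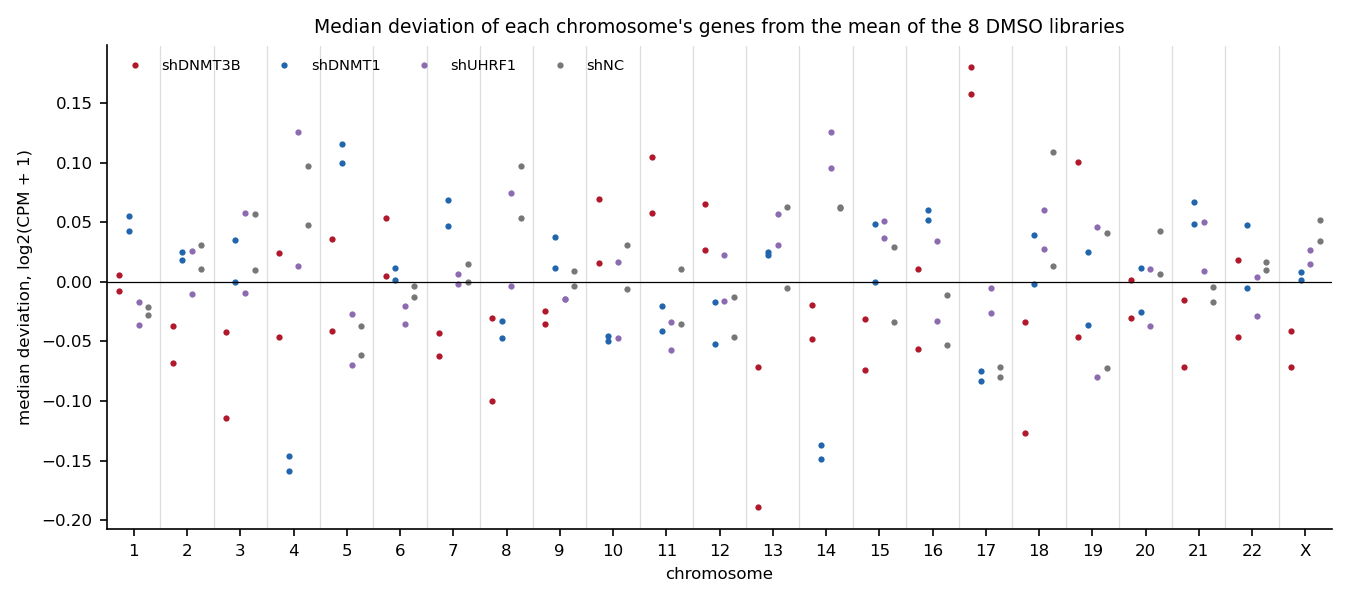
Median deviation of each chromosome's genes from the mean of the 8 DMSO libraries, on the log2(CPM + 1) scale, by library for shDNMT3B (red), shDNMT1 (blue), shUHRF1 (purple) and shNC (grey), over genes with a mean of at least 1 CPM. Chromosome 17 has the highest points, 0.18 and 0.16 in shDNMT3B, with both shDNMT1 libraries at -0.08; the shDNMT1 libraries lie low on chromosomes 4 (-0.16 and -0.15) and 14 (-0.15 and -0.14).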

How the data were processed

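The deposited table holds raw counts of reads per gene, made by the authors from TruSeq stranded libraries. The submitters' processing notes name STAR 2.4.0b, HTSeq 0.6.1p1, Cufflinks 2.1.1 and the hg38 build. Whether counting used strand is not given in the sources used here. Symbols and positions came from GENCODE release 44. Of 60676 genes, 16503 passed filterByExpr (minimum count 10, minimum total 15). All 16 libraries in 8 groups were fitted with edgeR 4.0.16 in R 4.3.3 (TMM factors, robust quasi-likelihood test, Benjamini-Hochberg adjustment), and contrasts were taken from this fit. Each SE is the size of the log2 fold change divided by the square root of the test's F statistic. It is thus derived from the test and is not a fitted standard error. CPM uses TMM-scaled library sizes. Levels are not per length and are compared only within a gene. DESeq2 1.42.0 and limma 3.58.1, pandas 2.3.3, NumPy 2.4.6, SciPy 1.17.1 and Matplotlib 3.10.9 in Python 3.11.15 were also used.

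Same-numbered libraries deviated together (correlation of deviations from group means 0.22 to 0.51, above 0.1 in 28 of 28 pairs of groups, 0.43 between the 2 lines in DMSO), so the replicate number was also fitted as a block, and the data, not the labels, give this pairing. Alternatives were DESeq2, no filter on low counts, upper-quartile factors, a fit of only the 4 libraries, DEGES normalization (TMM repeated without the genes called) with an exact test, no mitochondrially encoded genes, a limit of 0.585 on the log2 fold change and each library left out. The steps were tested on simulated data. Gene lists and members were chosen with earlier results of these data known. Named genes were the hairpin targets with DNMT3A, genes the study names, the 15 largest rises and falls with at least 1 CPM and no overlap, up to 5 members per list by adjusted p, and the 5 smallest adjusted p of the PMA minus DMSO test, and not all are described. Others were chosen after their values were seen. Some named genes are not reported here. Counting intervals are exact at 95% and cover counting error only.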

Additional observations from a re-analysis of the deposited data

Results flagged for a closer look

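Of the genes named in the report, 98 were covered here, and HELLS, TET2 and COL1A1 were not. Among the 98, 29 differed between the treatments in the log2 fold change of shDNMT3B over shDNMT1, by the test of the PMA value minus the DMSO value (edgeR's quasi-likelihood test, adjusted p under 0.05). The value was lower in PMA for 27 and higher for 2. Of all genes tested, this test called 1.20%, 0.988% lower and 0.212% higher. Many of the 98 were picked for a gap in DMSO, and some for a small p in this same test. The counts of 29, 27 and 2 are therefore not independent of that choice. For APOL6, ISG20 and LPL the change was called higher in DMSO and lower in PMA. All values that follow are that difference on the log2 scale.

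Of the amino acid response, STC2 gave -5.55, GDF15 -5.27, NUPR1 -4.07, ATF5 -3.80, ATF3 -3.13, SLC7A11 -2.82, SESN2 -2.52 and CHAC1 -2.40. Smaller differences in this group were those of WARS1 at -2.32, MTHFD2 at -2.11, SLC3A2 at -1.69, CARS1 at -1.62, DDIT3 at -1.62, SLC7A5 at -1.54, JDP2 at -1.46 and AARS1 at -1.35.

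Of the interferon lists, SERPING1 gave -2.79, ISG20 -2.69, RSAD2 -2.15, LGALS3BP -1.73 and APOL6 -1.61. Of macrophage genes, LPL gave -2.22, VSIG4 -1.88 and MARCO 3.23. Of matrix and surface genes, COL4A2 gave -4.17, ITGA11 -4.09 and CSPG4 1.94, the last a fall in DMSO that was smaller in PMA. RPS6KA2 gave -3.18.

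DNMT3A gave -1.56. It had 39.8 and 36.6 CPM in the PMA libraries labelled shDNMT3B, against 75.2 and 69.2 CPM in those labelled shDNMT1 (log2 fold change -0.92, adjusted p = 0.00676), where in DMSO it had 21.2 and 18.3 CPM against 14.4 and 10.9 CPM.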

How the results depend on the processing

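The counts of calls moved with the fit. For genes higher (780 as reported), the replicate block gave 1830 and a fit of only the 4 libraries 301, and for genes lower (265) the block gave 1611, DESeq2 430, no filter on low counts 416 and the 4 libraries 47. Leaving out 1 library gave 336 to 545 higher and 65 to 134 lower. In PMA the block gave 2507 higher and 2451 lower and DESeq2 1077 lower, and for the difference between treatments they gave 1607 (block) and 520 (DESeq2). Of the 780 and 265, DESeq2 also called 749 and 261 and the 4-library fit 295 and 47. Among the 98 named genes that were covered, no called gene changed sign in any alternative run. Among these 98, the block ended no call and added 12, all with their values printed in the report. Outside the 98, the block also called HELLS and TET2. The 4-library fit ended 17 of 81 named calls (APOL6, CCDC103, CCL20, DUSP8, IL18, IRF7, ISG20, ITGA11, JAG1, LYZ, MS4A3, NUSAP1, PPARG, SERPING1, SREBF1, TNF and TNFSF14) and DEGES 1 (ISG20). Genes that were not called changed sign when 1 library was left out, DNMT1 (-0.40 to 0.0897) and MARCO (-0.42 to 0.34). The median log2 fold change of all genes lay between -0.0182 and 0.0424 in every alternative. With 2 libraries per line, 1 line per hairpin and few counts for the largest rises, fold changes of scarce genes are imprecise, and leaving out a library assumes that the lone one varies like the other groups.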
